A study of Mus musculus with 77 samples.

Results

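The comparison is between the sets of 8-cell embryos whose library titles carry DEP_01_162 or DEP_01_164. Set DEP_01_162 holds 22 blastomeres of 4 embryos (embryos 1 to 4) and set DEP_01_164 holds 27 blastomeres of 8 embryos (embryos 5 to 12). Cells were assigned by the title set in their library name, which left 49 of the 77 cells and 12 of the 26 embryos of the series. All are mouse embryos of the BDF1 strain from somatic cell nuclear transfer (SCNT), where an oocyte receives a somatic nucleus in place of its own, and all were cultured in vitro in CZB medium. Single blastomeres were taken by micromanipulation, whole-genome amplification followed, and single-cell Repli-seq (scRepli-seq) read from copy number which stretches each cell had already copied. The sources used here do not give the type of the donor cell, nor what distinguishes the sets beyond the title. The authors' annotation places all 49 cells in 1 batch, and the embryo was taken as the replicate.

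A mammalian genome is copied in a fixed order within S phase. Gene-rich, open chromatin tends to replicate early and compact, gene-poor chromatin late, in stretches called replication domains, and a cell caught in S phase is a mosaic of copied and not yet copied stretches. In cleavage embryos this order takes shape over the first cell cycles, and after nuclear transfer a somatic nucleus enters those cycles. Separate sets of embryos of one stage show how far the order recurs from embryo to embryo.

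Each profile calls bins of 80 kb in genome build mm9 as replicated or unreplicated, or gives no call. Of 30890 autosomal bins, 28243 to 29757 were called per cell in set DEP_01_162 and 27235 to 29848 in set DEP_01_164. The embryo means were 29402 ± 194 (SD, n = 4) and 29361 ± 498 (SD, n = 8) called bins and differed by 41.5 (two-sided exact permutation test, p = 0.883). The authors' noise score (MAD score) averaged 0.534 ± 0.0748 (SD, n = 4) and 0.487 ± 0.0867 (SD, n = 8), and this difference of 0.0474 had p = 0.372 in the two-sided exact permutation test. The files hold calls and not reads, so the read depth is unknown. None of the 49 profiles was identical to another.

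The first question was whether the sets caught their embryos at the same point of S phase. The replicated percent of a cell, the share of its called autosomal bins that were replicated, averaged 51.3%, 65.8%, 47.5% and 69.2% in embryos 1 to 4. In set DEP_01_164 the embryo means were 15.1% (embryo 8, which gave 1 cell) at the lowest, 56.8% at the median and 81.9% (embryo 9) at the highest. The range of set DEP_01_162 lay inside that of set DEP_01_164. The means of 58.4% ± 10.7 (SD, n = 4) and 52.4% ± 19.3 (SD, n = 8) differed by 5.999 percentage points, a gap within the variation among embryos (p = 0.588, two-sided exact permutation test over 495 splits). With single embryos left out the difference ranged from 0.67 points (without embryo 8) to 10.2 points (without embryo 9).

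Most embryos of both sets held blastomeres far apart in replicated percent. The cells of embryo 3 ran from 16.5% to 87.7% replicated and those of embryo 10 from 26.7% to 94.3%. The cells of embryo 12 lay closest together, at 52.6% and 59.02%. The upper cell of embryo 3 had a median unreplicated run of 0.08 Mb, a single bin. The next cell of that embryo was at 85.4%. Embryo 10 gave only 2 cells, and in the upper one 18 autosomes were at least 98% replicated. Whether these upper cells were still in S phase was not tested. The SD over the cells of an embryo averaged 21.3 ± 7.90 points (SD, n = 4 embryos) in set DEP_01_162 and 22.6 ± 13.6 points (SD, n = 7 embryos with more than 1 cell) in set DEP_01_164. These differed by -1.34 points (two-sided exact permutation test, p = 0.882).

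**Figure D1:**
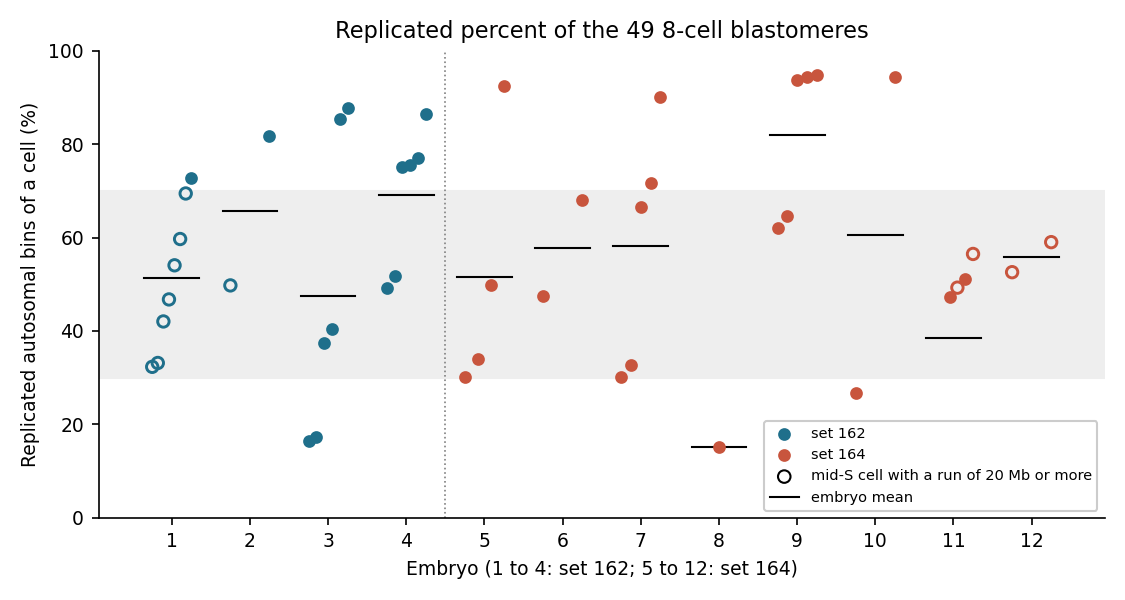
Replicated percent of each of the 49 cells (y axis, percent of called autosomal bins) by embryo (x axis), with black lines for embryo means and the shaded band for the mid-S range of 30 to 70%. Values run from 16.5% to 87.7% in set DEP_01_162 and from 12.9% to 94.8% in set DEP_01_164. The cell at 87.7% had a median unreplicated run of 0.08 Mb. The cell at 94.8% had 18 autosomes at least 98% replicated and chromosome 9 at 0%. The open circles, mid-S cells with a run of 20 Mb or more, lie in embryos 1, 2, 11 and 12.

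Because cells lay at unlike points of S phase, replication order was compared in mid-S cells, those between 30 and 70% replicated. Set DEP_01_162 has 12 of them in 4 embryos (7, 1, 2 and 2 cells of embryos 1 to 4) and set DEP_01_164 has 16 in 6 embryos (3, 2, 3, 2, 4 and 2 cells of embryos 5, 6, 7, 9, 11 and 12). Embryo 2 therefore enters with a single cell. The mid-S cells of embryos 1 to 4 were on average 48.2%, 49.8%, 38.9% and 50.5% replicated, and those of set DEP_01_164 ran from 37.98% in embryo 5 to 63.4% in embryo 9. The set means of 46.9% ± 5.36 (SD, n = 4) and 51.5% ± 9.49 (SD, n = 6) differed by -4.69 points (two-sided exact permutation test over 210 splits, p = 0.381).

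The noise score was higher in the mid-S cells of set DEP_01_162. It averaged 0.649, 0.709, 0.633 and 0.631 in embryos 1 to 4, and 0.562, 0.583, 0.518, 0.546, 0.632 and 0.612 in embryos 5, 6, 7, 9, 11 and 12. The sets overlapped through embryo 11 alone, which lay just above embryo 4. The means of 0.656 ± 0.0367 (SD, n = 4) and 0.576 ± 0.0421 (SD, n = 6) differed by 0.0800 (two-sided exact permutation test, p = 0.0143), a test added after the data were seen. Without embryo 2 the difference was 0.0621 (two-sided exact permutation test, p = 0.0595). In cells 40 to 60% replicated, with 4 embryos in each set, it was 0.0351 (two-sided exact permutation test, p = 0.2). The part of noise in the set differences that follow was not tested.

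The central question was whether cells of one set resemble each other more than they resemble cells of the other set. Agreement was measured as the phi coefficient, the correlation of the replicated or unreplicated state of a cell pair over the autosomal bins called in both, for pairs from different embryos. It averaged 0.565 over 43 pairs within set DEP_01_162, 0.545 over 105 pairs within set DEP_01_164 and 0.546 over 192 pairs between the sets. These averages run over cell pairs and not over embryos. Embryo 1, with 7 of the 12 mid-S cells of its set, enters most pairs within set DEP_01_162 and most pairs between the sets. The mean of the within-set values exceeded the between-set value by 0.00905, a difference that did not pass the threshold when set labels were exchanged among embryos (two-sided exact permutation test over 210 splits, p = 0.195). Without embryo 1 this difference was -0.00527 (two-sided exact permutation test, p = 0.726). Set DEP_01_162 exceeded set DEP_01_164 by 0.0205 (p = 0.586, two-sided exact permutation test), and this value was -0.0407 in cells 40 to 60% replicated (two-sided exact permutation test, p = 0.257). Without embryo 6 it was 0.000648, and leaving out any other embryo gave 0.0109 to 0.0342.

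Single embryos went both ways. Cells of embryo 1 had a mean phi of 0.563 with their own set and 0.531 with the other set, whereas cells of embryo 4 had 0.572 with their own set and 0.585 with the other. Agreement was higher with the own set in embryos 1, 2, 3, 6, 9, 11 and 12 and higher with the other set in embryos 4, 5 and 7. Embryo 6 was the lowest of all, at 0.490 with its own set and 0.474 with the other. Its cell numbered 15 changed state 98.5 times per 1000 called bins, the most of any mid-S cell, and its cells had a phi of only 0.391 with each other.

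Cells of one embryo were not uniformly more alike than cells of different embryos. Pairs within an embryo averaged 0.573 over 23 pairs in set DEP_01_162, 21 of them from embryo 1, and 0.590 over 15 pairs in set DEP_01_164. The pair of embryo 3 had 0.724 and the pair of embryo 4 at 0.697, while the 21 pairs of embryo 1 averaged 0.560. Agreement also depends on the gap in replicated percent between the cells. Among pairs within 10 points of each other the means were 0.601 within set DEP_01_162, 0.599 within set DEP_01_164 and 0.592 between sets, so all 3 values rose and lay closer together. Pairs between sets in which neither cell held a single-state run of 20 Mb or more averaged 0.591 over 48 pairs, against 0.531 over the 144 pairs in which a cell did. The same values were 0.551 over 57 pairs and 0.538 over 48 pairs within set DEP_01_164, and 0.611 over 4 pairs and 0.561 over 39 pairs within set DEP_01_162. The gap was thus smallest within set DEP_01_164.

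**Figure D2:**
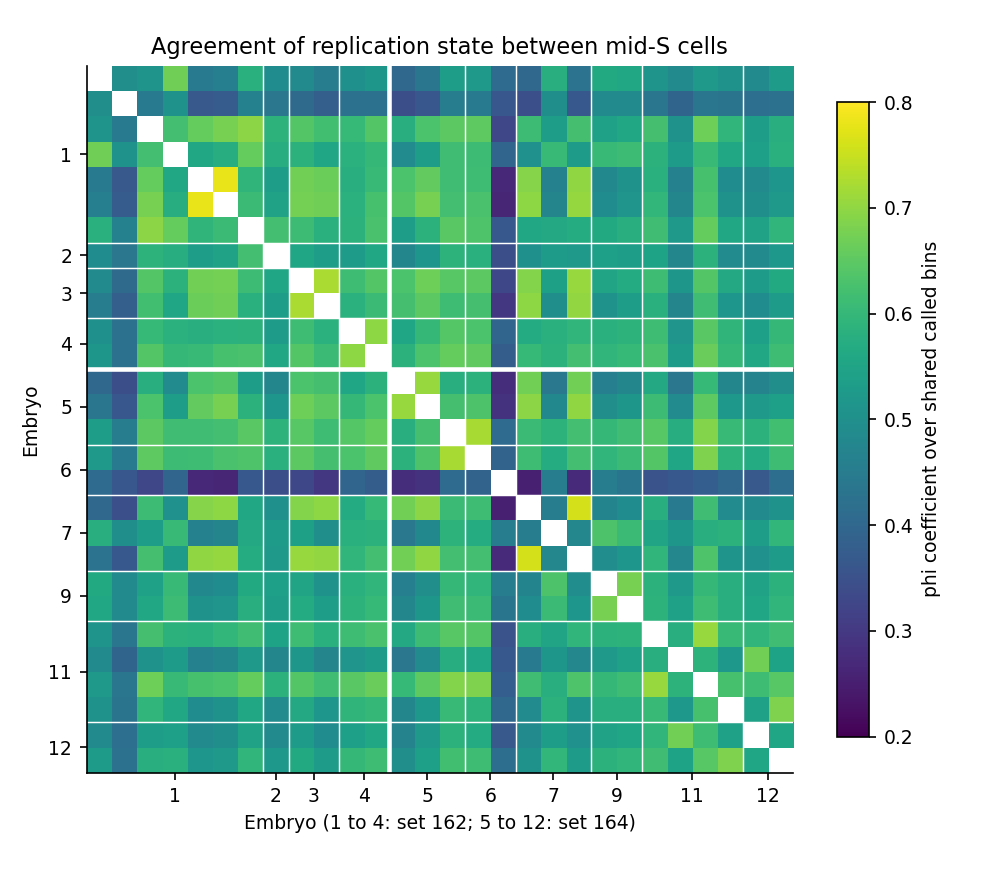
Phi coefficient of every pair of the 28 mid-S cells, grouped by embryo on both axes, on a colour scale from 0.2 to 0.8, with thin lines between embryos and a thick line between sets. The blocks on either side of the thick line have similar colours, with means of 0.565, 0.545 and 0.546, and the dark row and column is a cell of embryo 6.

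The order itself recurred between the sets. Averaged over embryos, the replicated percent of 2386 windows of 1 Mb had a Pearson correlation of 0.935 and a Spearman correlation of 0.935 between the sets, and single bins had a Pearson correlation of 0.908 over 29755 bins. These are correlations across neighbouring positions of the same libraries, which are not independent replicates. By chromosome, Pearson's value ran from 0.917 on chromosome 13 to 0.971 on chromosome 11. The median absolute difference of a window was 6.83 points, 64.6% of windows lay within 10 points and 88.4% within 20 points of each other.

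Most early windows were common to both sets, and most late windows of set DEP_01_164 were late in set DEP_01_162 too. Windows with a mean of at least 90% in mid-S cells, called early here, numbered 363 in set DEP_01_162 and 351 in set DEP_01_164, of which 282 were in both lists (77.7% and 80.3% of each). Late windows, with a mean of at most 10%, numbered 468 and 268, and the 242 in both make up 51.7% and 90.3%. The early lists were thus of like size while the late list of set DEP_01_162 was longer. The replicated percent of the mid-S cells averaged 46.9% in set DEP_01_162 and 51.5% in set DEP_01_164, and its part in the length of the late lists was not tested. Taking the latest 238 windows of each set by rank instead, 148 (62.2%) were in both, and of the earliest 238, 158 (66.4%). Windows early in one set and late in the other numbered 0. Windows replicated in every called bin of every mid-S cell of all 10 embryos numbered 5 of 2321 with a value in each embryo, among them the windows at 31000001 to 32000000 on chromosome 2 and 140000001 to 141000000 on chromosome 5. Windows without a replicated bin in any of them numbered 7, among them 68000001 to 69000000 and 110000001 to 111000000 on chromosome 4. Genes were not placed in windows, since the gene table at hand is of another build than mm9.

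Chromosomes 9 and 12 held 0 windows that were early in both sets, of 121 and 116. Each was at most 0.435% replicated in at least 1 mid-S cell, in embryos 11 and 12 for chromosome 9 and in embryo 2 for chromosome 12. With the bins of runs of 20 Mb or more masked, an alternative chosen after seeing the data, they held 19 and 14.

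Most replication borders of one set had a counterpart in the other. With a bin given the state of the majority, replicated where the set mean was over 50%, 26580 of 29578 bins (89.9%) had the same state in both, 666 were replicated in set DEP_01_162 only and 2332 in set DEP_01_164 only. The majority profile of set DEP_01_162 changed state at 1775 borders and that of set DEP_01_164 at 1920. Of these, 69.3% of the borders of set DEP_01_162 had a border of the same direction within 160 kb, or 2 bins, in set DEP_01_164, and 64.3% of the borders of set DEP_01_164 had one in set DEP_01_162, with a median distance of 80 kb in both directions.

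The spread between embryos was described along the order, where values near 0 or 100% leave less room for spread by construction. To class windows by values that neither set provided, the 4-cell SCNT cells with the column prefix mEmb04C were used. In the 397 windows at least 90% replicated in those cells, the median over windows of the SD between embryos was 5.62 points in set DEP_01_162 and 9.48 points in set DEP_01_164. It was 17.7 and 17.2 points in the 712 windows at 30 to 70%, 12.9 and 17.4 points in the 504 windows over 10 to 30%, and 6.75 and 13.5 points in the 390 windows at 10% or less. In the 378 windows over 70 to 90%, this median was 14.04 points in set DEP_01_162 and 14.11 points in set DEP_01_164. The median window of that class was at 79.35% and 80.12%. Medians of the SD were thus alike in the windows at 30 to 70% and over 70 to 90%. Set DEP_01_164 had the wider one at 90% or more, over 10 to 30% and at 10% or less. This description was not tested. The room for spread also differed in the classes where set DEP_01_164 was wider, since set DEP_01_162 lay nearer to 0 or 100%. Its median window was at 95.8% against 93.5% in set DEP_01_164 in the windows at 90% or more. The values were 15.9% against 24.2% over 10 to 30% and 4.81% against 10.9% at 10% or less.

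**Figure D3:**
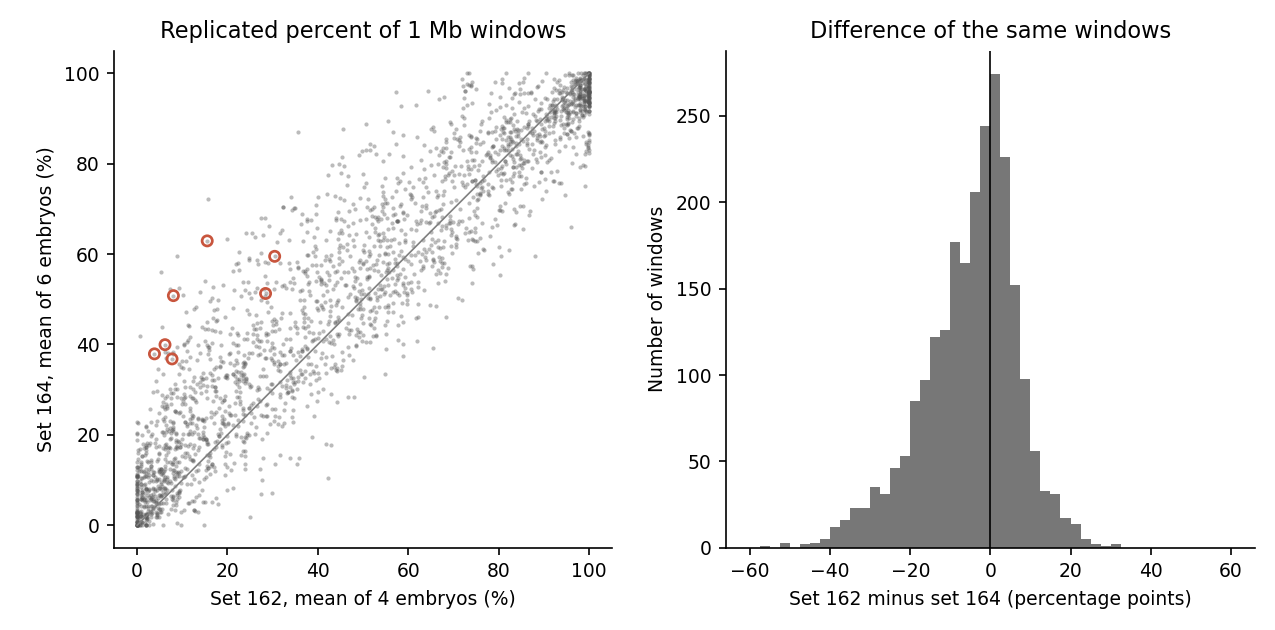
Left, mean replicated percent of each of 2386 windows in set DEP_01_162 (x axis, 4 embryos) against set DEP_01_164 (y axis, 6 embryos), with the line of equality and open circles for the 7 windows whose embryo values do not overlap between the sets. Right, number of windows (y axis) by the difference DEP_01_162 minus DEP_01_164 (x axis, percentage points), whose longer tail lies below 0, with a median absolute difference of 6.83 points.

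Windows were then tested one by one with limma, with the embryo's replicated percent as a covariate. Of 2386 windows, 0 passed an adjusted p of 0.05 (Benjamini-Hochberg), a share of 0 percent, and the lowest adjusted p was 0.496. The median standard error of a difference was 8.08 points. Unadjusted p-values under 0.05 were found in 177 windows (7.42%), 99 of them with set DEP_01_162 higher and 78 with set DEP_01_162 lower. Without the covariate the same count was 120, of which 15 had set DEP_01_162 higher and 105 had it lower, and again 0 windows passed after adjustment.

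Embryo values of the sets did not overlap in 7 windows, in which every embryo of set DEP_01_162 lay below every embryo of set DEP_01_164, a share of 0.293 percent of all windows. The opposite case was found in 0 windows, a share of 0 percent. For values without ties, 1 of the 210 splits of the labels puts the smaller set wholly below the other. That is a share of 0.00476 for each direction, and the shares of windows found were below it. The largest difference among the 7 windows was on chromosome 1 from 8000001 to 9000000. There the embryo means were 27.5%, 15.4%, 7.69% and 11.5% in embryos 1 to 4 and 43.6%, 73.1%, 43.6%, 50%, 67.3% and 100% in embryos 5, 6, 7, 9, 11 and 12. The set means were 15.5% ± 8.56 (SD, n = 4) and 62.9% ± 21.96 (SD, n = 6), and the fitted difference at equal replicated percent was -42.6 points (standard error 10.7, limma adjusted p = 0.577). This window was at 27.5% or less in every embryo of set DEP_01_162 and at 43.6% or more in every embryo of set DEP_01_164.

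The next windows by size were picked by the same rule of no overlap, so set DEP_01_162 being lower in them follows from the choice. On chromosome 15 from 3000001 to 4000000 the means were 8.04% ± 7.18 (SD, n = 4) and 50.8% ± 32.2 (SD, n = 6), with embryos 6 and 9 both at 91.7% and the others of set DEP_01_164 at 25% to 41.7%. On chromosome 14 from 82000001 to 83000000 they were 3.85% ± 5.44 (SD, n = 4) and 37.9% ± 19.03 (SD, n = 6). On chromosome 1 from 22000001 to 23000000 they were 6.18% ± 4.82 (SD, n = 4) and 39.96% ± 19.5 (SD, n = 6). On chromosome 11 from 25000001 to 26000000 they were 7.74% ± 8.99 (SD, n = 4) and 36.8% ± 17.4 (SD, n = 6). All 5 had means of 3.85% to 15.5% in set DEP_01_162, with adjusted p-values of 0.577 to 0.650 in the limma fit, so none passed the test. Without embryo 1, windows without overlap numbered 43 with set DEP_01_162 lower and 2 with it higher, and without embryo 2 18 and 1, counts that grow by construction when a set has fewer embryos.

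Differences in means of over 40 points were found in 14 windows, all higher in set DEP_01_164. In these windows embryos 9, 12 and 6 had median values of 89.6%, 88.0% and 74.0%, and their medians over all windows were 70.8%, 57.7% and 62.5%. These embryos also had the highest replicated percent among mid-S cells, at 63.4%, 55.8% and 57.8%. Among embryos at a like replicated percent, embryo 11 (51.1%) had a median of 66.3% in the 14 windows. Embryos 1 (48.2%), 2 (49.8%) and 4 (50.5%) had 26.4%, 0% and 17.3%. The windows were picked by the set difference, so higher values in set DEP_01_164 follow from the choice. The part of the replicated percent in these differences was not tested. Without embryo 1 the count was 39, also all higher in set DEP_01_164.

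Chromosome by chromosome, each autosome was expressed as its replicated percent minus the cell's value over all autosomes. Of 19 autosomes 0 differed after adjustment (two-sided exact permutation tests over embryos, lowest adjusted p = 0.543), a share of 0 percent, and 1, chromosome 8, had an unadjusted p under 0.05. The smallest p this permutation test can give is 0.00476, so 1 autosome alone could not pass after adjustment over 19. The 0 therefore does not show that the autosomes were alike. No chromosome had embryo values of the sets apart, a share of 0 percent. Chromosome 11 was on average ahead of the other autosomes in both sets, by 12.9 ± 2.83 points (SD, n = 4) and 10.2 ± 9.51 points (SD, n = 6), as was chromosome 17, by 8.66 ± 2.14 and 6.87 ± 2.00 points (SD, n = 4 and 6). Embryo 11 was the exception on chromosome 11, at -4.87 points, and embryo 12 was the highest there, at 22.9 points. Chromosome 14 was behind in both, by -9.36 ± 2.88 and -10.0 ± 1.06 points (SD, n = 4 and 6), and below 0 in all 10 embryos.

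The largest positive difference was on chromosome 9, at 9.68 points (two-sided exact permutation test, p = 0.0905, adjusted p = 0.556). It stood at 8.69, 8.64, 7.25 and 2.35 points above the autosomes in embryos 1 to 4 and at 2.98, -0.726, 2.25, 5.89, -1.09 and -27.0 points in embryos 5, 6, 7, 9, 11 and 12. Embryo 12 lay far below the rest. With runs of 20 Mb or more masked, its value was -1.11 points and the set difference 4.73 points (two-sided exact permutation test, p = 0.0286, adjusted p = 0.249). Chromosome 7 differed by 3.64 points (two-sided exact permutation test, p = 0.162), with embryo 2 at 10.3 and the other embryos of set DEP_01_162 between -1.04 and 0.114 points. Chromosome 8 differed by 3.27 points (two-sided exact permutation test, p = 0.0286, adjusted p = 0.543). It lay at -0.291, 1.39, 2.32 and -3.19 points in embryos 1 to 4 and between -4.36 and -1.23 points in set DEP_01_164, so that embryo 4 was inside the range of set DEP_01_164.

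On the negative side, chromosome 12 differed by -12.3 points (two-sided exact permutation test, p = 0.129, adjusted p = 0.556). Embryo 2 was at -49.3 points, and embryos 1, 3 and 4 were at -3.08, -1.30 and -1.68 points, inside the range of set DEP_01_164 (-3.79 to 0.160). Chromosome 13 differed by -7.02 points (two-sided exact permutation test, p = 0.0571, adjusted p = 0.543), with 1.45, -7.27, -4.47 and 1.33 points in embryos 1 to 4 and -2.56, 6.93, -0.0253, 5.93, 8.60 and 9.82 points in embryos 5, 6, 7, 9, 11 and 12. Here 4 embryos of set DEP_01_164 lay above all of set DEP_01_162. Chromosome 4 differed by -4.20 points (two-sided exact permutation test, p = 0.486), with embryo 2 at -21.4 points and the other 3 embryos of set DEP_01_162 between -0.712 and 1.26. The single mid-S cell of embryo 2 was thus below all other embryos on chromosomes 12 and 4.

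**Figure D4:**
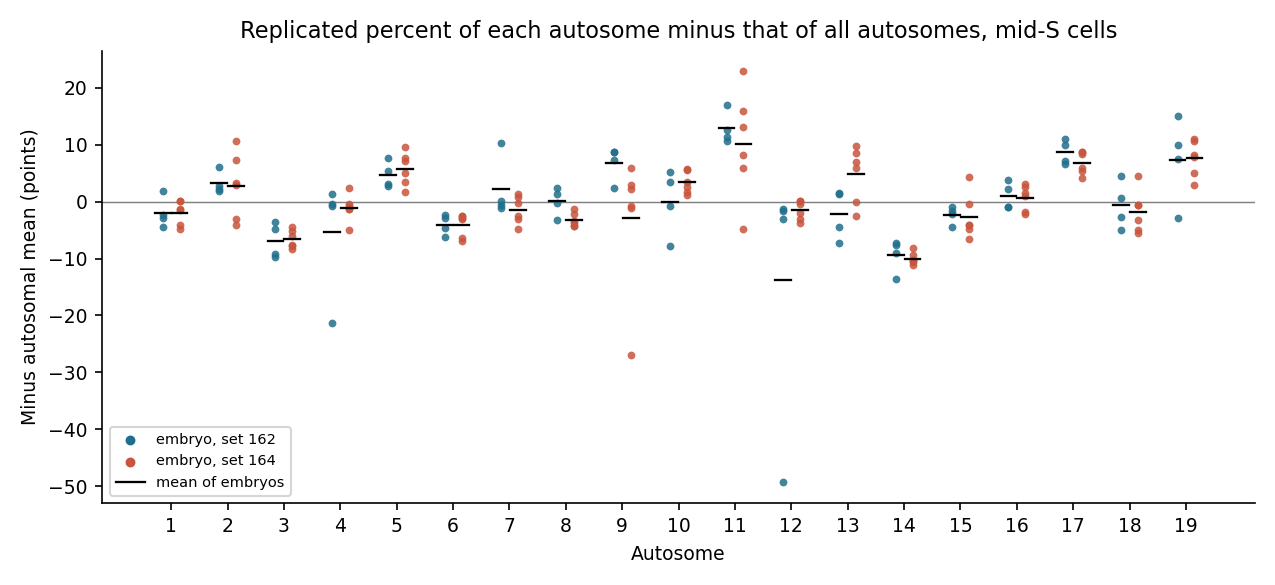
Replicated percent of each autosome minus that of all autosomes (y axis, percentage points) by autosome (x axis), 1 point per embryo and black lines for the means over the embryos of a set. The sets overlap on every autosome, and the points far from the others are embryo 2 on chromosome 12 (-49.3) and chromosome 4 (-21.4) and embryo 12 on chromosome 9 (-27.0).

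How finely the genome was cut into copied and uncopied stretches was compared by the number of changes of state and the length of runs, taken along called bins. The mid-S cells changed state 55.7, 52.4, 66.2 and 79.7 times per 1000 called bins in embryos 1 to 4, and 79.0, 82.5, 66.2, 67.5, 67.9 and 68.3 times in embryos 5, 6, 7, 9, 11 and 12. Embryos 1 and 2 lay well below all of set DEP_01_164, embryo 3 lay level with embryo 7, the lowest of that set, and embryo 4 lay inside its range. The means of 63.5 ± 12.3 (SD, n = 4) and 71.9 ± 6.98 (SD, n = 6) differed by -8.40 (two-sided exact permutation test, p = 0.214). Without embryo 4 the difference was -13.8 (two-sided exact permutation test, p = 0.0238) and without embryos 1 and 2 it was 1.06 (two-sided exact permutation test, p = 0.929). The fewest changes were in embryos 1 and 2, whose mid-S cells all held runs of 20 Mb or more, as did those of embryo 12 with 68.3 changes.

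Median run lengths were close to each other. Replicated runs had medians of 0.88, 1.04, 0.64 and 0.64 Mb in embryos 1 to 4, and the set means were 0.80 ± 0.196 Mb (SD, n = 4) and 0.738 ± 0.154 Mb (SD, n = 6), which differed by 0.0622 Mb (p = 0.605 by the two-sided exact permutation test). Unreplicated runs had medians of 0.88, 0.88, 1.00 and 0.68 Mb in embryos 1 to 4 and 0.773, 0.56, 0.88, 0.64, 0.74 and 0.64 Mb in embryos 5, 6, 7, 9, 11 and 12. Their means were 0.86 ± 0.133 Mb (SD, n = 4) and 0.706 ± 0.115 Mb (SD, n = 6), and the difference of 0.154 Mb, about 2 bins, did not pass the threshold (two-sided exact permutation test, p = 0.0810). It was 0.214 Mb without embryo 4 and 0.189 Mb without embryo 7, with exact permutation p-values of 0.0476 and 0.0397.

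**Figure D5:**
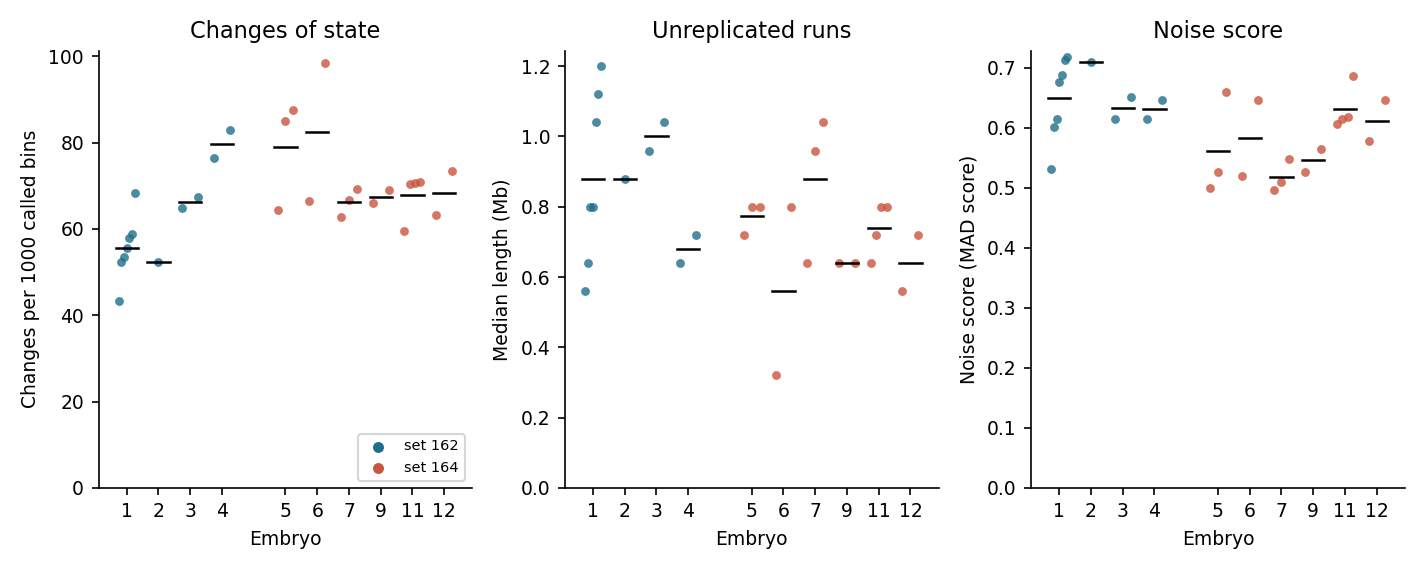
Changes of state per 1000 called bins, median length of unreplicated runs (Mb) and noise score of the 28 mid-S cells by embryo, with points for cells and black lines for embryo means. Embryos 1 and 2 have the fewest changes (55.7 and 52.4), unreplicated runs overlap between the sets, and the noise score of set DEP_01_162 (0.631 to 0.709) overlaps that of set DEP_01_164 (0.518 to 0.632) only at its lower end.

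Long runs of a single state were found in some embryos of both sets. A run is measured here as the span from its first to its last called bin. Of the mid-S cells, 8 of 12 in set DEP_01_162 and 4 of 16 in set DEP_01_164 held at least 1 run of 20 Mb or more. In set DEP_01_162 these were 7 of 7 cells of embryo 1 and the cell of embryo 2, with 21 runs of 20.2 to 71.0 Mb, 17 of them unreplicated. In set DEP_01_164 they were 2 of 4 cells of embryo 11 and both cells of embryo 12, with 7 runs of 21.1 to 121 Mb, 5 of them unreplicated. Embryos 3 and 4, and 5, 6, 7 and 9, had 0 such cells, and the longest run of any mid-S cell without one was 15.4 Mb in set DEP_01_162 and 18.2 Mb in set DEP_01_164.

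Calls were sparse inside these runs. Over the same span, 17 of the 21 runs of set DEP_01_162 and 7 of 7 of set DEP_01_164 had fewer called bins than the median of the 49 cells. The share of bins called within a run had a median of 66.0% in set DEP_01_162 and 65.3% in set DEP_01_164, with lowest values of 26.1% and 49.1%. Counting called bins only, the runs held 9.68 to 62 Mb in set DEP_01_162 and 12.9 to 88.8 Mb in set DEP_01_164, and 12 of 21 and 5 of 7 still held 20 Mb or more. The part of missing calls in the length of the runs was not tested.

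In some mid-S cells nearly every called bin of an autosome, at least 98%, was in 1 state. Chromosome 10 was 0.216% replicated in the cell numbered 08 of embryo 1, which was 69.4% replicated over all autosomes, and chromosome 12 was 0.435% replicated in the mid-S cell of embryo 2. In embryo 11 the cell numbered 42 had 0.201% of chromosome 9 and 0.209% of chromosome 11 replicated, and in embryo 12 the cell numbered 45 had 0% of chromosome 9. Other cells of the same embryos went another way. Chromosome 9 was 91.1%, 50.5% and 58% replicated in the other mid-S cells of embryo 11, and 57.6% in the other cell of embryo 12. In embryo 12, chromosome 11 was 93.4% replicated in the cell that lacked replicated bins on chromosome 9. Chromosome 12 was 96.4% replicated in the other cell of embryo 2, which was 81.8% replicated over all autosomes. The affected chromosomes had 48.1% (chromosome 12, embryo 2) to 87.6% (chromosome 10, embryo 1) of the called bins of the median cell.

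Embryo 1, with 8 cells, showed the same stretches in opposite states. The borders are those of an unreplicated run of the cell numbered 13 on chromosome 19 and of the cell numbered 14 on chromosome 7. The 0% of those cells in these stretches thus holds by construction. On chromosome 19 from 16480001 to 61280000, the cells numbered 07, 10, 11, 12 and 13 were 3.95%, 3.39%, 2.86%, 1.5% and 0% replicated, while the cells numbered 08 and 09 were 95.7% and 99.5% replicated and the cell numbered 14 was 33.2%. The rest of the same chromosome was 53.6% to 90.3% replicated in the 8 cells. The replicated percent of the cells did not order these values, since the cell numbered 11 was the furthest in S phase at 72.8% and the cell numbered 09 stood at 42.04%. On chromosome 7 from 3200001 to 70720000, the cells numbered 14 and 09 were 0% and 1.22% replicated, 07 and 10 were 19.1% and 20.2%, 13 and 12 were 56.9% and 59.5%, and 11 and 08 were 82.0% and 86.4%. Beyond that stretch chromosome 7 was 37.0% to 72.9% replicated. The cells 07 and 10, and the cells 12 and 13, had values close to each other in both stretches. Their calls were close too, since 35.7% and 37.3% of bins of the chromosome 19 stretch were called in the cells numbered 12 and 13, 76.8% and 79.1% in 07 and 10, and 99.6% to 100% in the other 4.

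Each cell was also read against the profile of the other set, over which the chance that a replicated bin ranks above an unreplicated one (the area under the curve, AUC) was computed. For mid-S cells the AUC averaged 0.915 ± 0.0258 (SD, n = 4 embryos) in set DEP_01_162 against the profile of set DEP_01_164, and 0.903 ± 0.0305 (SD, n = 6 embryos) in set DEP_01_164 against that of set DEP_01_162. The profile of the own set, built without the embryo of the cell, gave 0.899 ± 0.0156 and 0.916 ± 0.0248 (SD, n = 4 and 6 embryos). On average the profile of set DEP_01_164, which rests on more embryos, thus gave the higher value in both sets, in 3 of 4 and 5 of 6 embryos, a difference that was not tested. The lowest mid-S values were 0.780 in the cell numbered 15 of embryo 6 and 0.844 in the cell numbered 08 of embryo 1.

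Cells that had entered S phase recently were sorted by the other set's profile too. The 2 cells of set DEP_01_162 under 30% replicated, both of embryo 3, had AUCs of 0.915 and 0.916 against set DEP_01_164, and the 4 cells of set DEP_01_164, of embryos 8, 10 and 11, had 0.840 to 0.889 against set DEP_01_162. Past 70% the values spread widely. Set DEP_01_162 had 8 such cells with AUCs of 0.394 to 0.909 and a median of 0.864, and set DEP_01_164 had 7 with 0.444 to 0.903 and a median of 0.498. The lowest value of set DEP_01_162 belonged to the cell numbered 29 of embryo 3, which was 87.7% replicated, changed state 132 times per 1000 called bins and had a median unreplicated run of 0.08 Mb, a single bin. The 4 lowest values of set DEP_01_164, 0.444, 0.444, 0.472 and 0.498, belonged to cells of embryos 9 and 10 that were 93.7% to 94.8% replicated and had 14 to 18 of the 19 autosomes at least 98% replicated.

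The 4-cell mEmb04C cells, 10 mid-S cells of 5 SCNT embryos, served as an outside set. Window means correlated with theirs at 0.920 (Pearson) in set DEP_01_162 and 0.896 in set DEP_01_164 over 2381 windows. The mean phi coefficient with these cells was 0.507, 0.528, 0.533 and 0.523 in embryos 1 to 4, and 0.516, 0.432, 0.506, 0.502, 0.498 and 0.472 in embryos 5, 6, 7, 9, 11 and 12. Embryo 1 lay inside the range of set DEP_01_164 and embryos 2, 3 and 4 lay above it. The means of 0.523 ± 0.0111 (SD, n = 4) and 0.488 ± 0.0310 (SD, n = 6) differed by 0.0350 (two-sided exact permutation test, p = 0.0476), in a test added after the data were seen. Leaving out single embryos gave differences of 0.0238 (without embryo 6) to 0.0406 (without embryo 5), with exact permutation p-values of 0.0317 to 0.0952 that were over the threshold without any 1 of the embryos 1, 2, 3, 4 or 12. In cells 40 to 60% replicated the difference was 0.00807 (two-sided exact permutation test, p = 0.714).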

How the data were processed

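The deposited binary profiles hold 1, -1 or 0 per bin of 80 kb, with no unit. The authors' cell annotation gives a replication score as a percent and a noise score (MAD score), per the file headers. Dividing the autosomal bins with 1 by those with any call gives back the deposited replication score to within 4.98e-09, so 1 was read as replicated, -1 as unreplicated and 0 as no call. All 49 cells passed the authors' noise filter. Coordinates are in mm9, which the submitters' processing notes name (per the labels), and the sources used here give no other upstream tool.

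Cell values were averaged per embryo, except agreement within and between the sets, which was averaged over cell pairs. Set differences were tested by two-sided exact permutation of set labels over embryos, whose smallest p is 0.00476 for 4 against 6 embryos. The tests measure the spread between these embryos. Windows of 1 Mb needed 6 called bins in 3 embryos of each set and were fitted with limma 3.58.1 in R 4.3.3. Other steps ran in scipy 1.17.1, pandas 2.3.3 and numpy 2.4.6 under Python 3.11.15, with plots from matplotlib 3.10.9, and the tests were tested on simulated data. For windows and agreement the planted differences were larger than any found here, so the power for smaller ones was not tested.

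The rule for named windows was the 10 with the largest difference in each direction past the threshold, plus, as a description, the 5 in each direction with the largest difference among windows without overlap. For chromosomes it was the 3 largest differences in each direction and any without overlap. The members, rules and lists were chosen with earlier results of these data known. The tests of mid-S noise, mid-S replicated percent and agreement with 4-cell cells, the masking of long runs and leaving out embryos 1 and 2 together were added after the data were seen. Chromosome X was not analysed here.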

Additional observations from a re-analysis of the deposited data

Results flagged for a closer look

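Of 46 groups of 4 to 10 embryos examined, 5 had an embryo far from the others. Chance alone would give about 1 in 20 for independent groups chosen beforehand. Here the chromosomes and windows were picked by their set difference, and the groups share embryos, so that rate does not apply. In set DEP_01_164, embryo 6 had a mean phi of 0.490 to the other embryos of its set, and the next lowest embryo was at 0.544. The remaining cases were chromosome values relative to all autosomes. In set DEP_01_162, embryo 2, which has 1 mid-S cell, was at -49.3 points on chromosome 12 (nearest embryo -3.08), at -21.4 points on chromosome 4 (nearest -0.712) and at 10.3 points on chromosome 7 (nearest 0.114). In set DEP_01_164, embryo 12 was at -27.0 points on chromosome 9 (nearest -1.09). The chromosome 12 and 9 values come with a cell in which that chromosome was 0.435% and 0% replicated, with 48.1% and 73.4% of the called bins of the median cell.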

How the results depend on the processing

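No paired analysis was possible because the tests compare embryos, the embryos of the sets carry different numbers, and the library numbers that coincide between the sets name unrelated cells. Of 233 recomputed values, 192 kept their direction and their side of the threshold. Leaving out each embryo in turn gave ranges of 0.67 to 10.2 points for the replicated percent, 0.0158 to 0.0709 for the noise score, -81.8 to 104 for called bins, -4.88 to 2.87 points for the spread within an embryo, -13.8 to -4.69 for changes of state, -0.0178 to 0.116 Mb for replicated runs, 0.108 to 0.214 Mb for unreplicated runs -0.00527 to 0.0142 for agreement within against between sets and 0.000648 to 0.0342 for agreement in DEP_01_162 against DEP_01_164. It left 0 windows and 0 chromosomes past the threshold in every case. For chromosomes only 84 or 126 splits remained, too few for 1 autosome alone to pass after adjustment. Those 0 counts, which are among the 192 values, are thus no sign of stability. With cells holding a run of 20 Mb or more left out, at any replicated percent, 2 embryos of set DEP_01_162 remained. Called bins, set against 6 embryos of set DEP_01_164, differed by -51.8 (exact permutation p = 0.0357, the smallest that 28 splits can give). The differences were 11.1 points for the spread, -0.0613 Mb for replicated runs and -0.00992 for agreement within against between sets. Without embryos 1 and 2 the differences were -0.0116 for the noise score, 0.882 points for the spread, 1.06 changes of state, -0.0978 Mb for replicated runs and -0.00151 for agreement within against between sets. In cells 20 to 80% replicated, changes of state differed by -11.5 (exact permutation p = 0.0424), agreement in DEP_01_162 against DEP_01_164 by -0.0364 and the replicated percent of the cells by 2.43 points. In cells 40 to 60% replicated that agreement was -0.0407, and 1 window, on chromosome 16 from 52000001, passed limma's test with set DEP_01_162 lower. With long runs masked, 1 window on chromosome 2 from 172000001 passed with set DEP_01_162 higher, although its embryo values overlapped. The noise score of mid-S cells kept its direction in every alternative and lost its call in 5 of them (0.0351 to 0.0679). The causes were not tested. The 4 embryos of set DEP_01_162, 1 of them with a single mid-S cell, limit every comparison, and read depth is unknown.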

Other observations

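Stretches with few calls were also seen outside mid-S. In early S phase, chromosome 5 had 19.8% of the called bins of the median cell in the cell numbered 24 of embryo 3, and chromosome 6 had 49.97% and 3.67% in the cells numbered 39 and 40 of embryo 11. The called bins there were 1.37%, 2.08% and 0% replicated, in cells that were 17.4%, 13.7% and 12.9% replicated overall. In the other cells of embryo 3 chromosome 5 had 99.0% to 100% of the median called bins, and in those of embryo 11 chromosome 6 had 100%.

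Chromosome 9 was at most 0.201% replicated in a cell of each of 3 embryos of set DEP_01_164. Besides the mid-S cells of embryos 11 (0.201%) and 12 (0%), it was 0% replicated in the cell numbered 33 of embryo 9, where 18 other autosomes were at least 98% replicated and the chromosome had 1512 called bins, as many as in the median cell. In set DEP_01_162, chromosome 16 was at most 2% replicated in the cell numbered 22 of embryo 3, which was 85.4% replicated overall. In embryo 10 the cell numbered 37 had 18 autosomes at least 98% replicated and chromosome 7 at 7.36%.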
